A study of Mus musculus with 6 samples.

Results

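Fragments of the nuclear proline tRNAs (tRNA-Pro) were studied in small RNA of mouse pulmonary artery smooth muscle cells in primary culture, which form the muscular wall of the lung's arteries. A sequence was taken as a tRNA-Pro fragment where every tRNA the deposited table assigned it to was a mature tRNA-Pro, that is, one with the anticodon AGG, CGG or TGG (annotated as mature-tRNA-Pro-AGG, mature-tRNA-Pro-CGG and mature-tRNA-Pro-TGG). This gave 1453 of the table's 38798 distinct sequences (tRNA-derived small RNAs, tsRNAs), with 155817 of 8966706 counts, or 1.74%. Only 3 further sequences, with 6 counts, were assigned to tRNA-Pro together with another tRNA, and 291 sequences belonged to the separate mitochondrial tRNA-Pro. All cells were wild type, and the groups were 3 libraries from cells kept at 3% oxygen for 24 hours (hypoxia) and 3 from cells under standard normoxia, called biological replicates in the study's design text. The Pandora-seq method was used, which strips RNA of modifications that hinder cloning before small RNA libraries are built. The number and age of the animals that gave the cells is not given in the sources used here, and the cell type could not be checked against its markers, since the table holds tRNA sequences only. The study set out to find tsRNAs that respond to hypoxia.

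Cytosolic tRNA-Pro carries proline to the ribosome and reads its codons through isoacceptors that differ in the anticodon. The encoded A that opens the AGG anticodon is converted to inosine in the mature tRNA, which reverse transcriptase reads as G, and the tail CCA is added to the 3′ end after transcription. Endonucleases such as angiogenin cut tRNAs in the anticodon loop under stress and so release long 5′ and 3′ fragments. A long 5′ fragment of tRNA-Pro has been described as a binding partner of ribosomes, and the 3′ end of tRNA-Pro is the primer that murine leukaemia viruses use for reverse transcription.

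Overlapping fragments joined into 4 full-length mature forms of 75 nt, of which 72 nt are encoded and the last 3 are the CCA tail. They are shown in full since the fragments below are read against their positions, counted from 1 at the 5′ end. Capitals mark the anticodon at positions 33 to 35 and the bases at positions 30 and 38, the pair that closes the anticodon loop.
Pro-AGG: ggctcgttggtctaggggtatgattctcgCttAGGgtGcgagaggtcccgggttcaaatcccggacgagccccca
Pro-CGG: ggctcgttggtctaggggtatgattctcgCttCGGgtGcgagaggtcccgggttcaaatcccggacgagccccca
Pro-TGG form 1: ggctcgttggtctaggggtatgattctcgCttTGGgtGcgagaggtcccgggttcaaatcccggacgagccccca
Pro-TGG form 2: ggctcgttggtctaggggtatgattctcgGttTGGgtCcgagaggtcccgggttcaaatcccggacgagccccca
Against Pro-TGG form 1, Pro-AGG differed only by T33A, Pro-CGG only by T33C, and Pro-TGG form 2 by C30G and G38C. A fragment that stops before position 30 or starts after position 38 therefore cannot be given to one form, and the table assigns 345 of the 1453 tsRNAs to all 3 anticodons at once. Of the others, 710 were given to TGG, 368 to CGG and 30 to AGG alone. The 4 forms together contained all but 7 tsRNAs, which held 0.00642% of tRNA-Pro counts.

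RefSeq (GRCm38.p6) lists 16 nuclear tRNA-Pro genes on 9 chromosomes, each 72 nt long: 6 with AGG, 3 with CGG and 7 with TGG. Several lie close together, as n-TPagg2 (chr1:165641634-165641705) and n-TPcgg2 (chr1:165642271-165642342), n-TPtgg7 (chr3:51358354-51358425) and n-TPagg5 (chr3:51359407-51359478), and n-TPtgg8 (chr7:98815415-98815486) and n-TPagg7 (chr7:98815676-98815747). In the GENCODE annotation of the same assembly 15 of the 16 lay in no other gene. The exception was n-TPtgg2 (chr11:67291139-67291210), which overlapped an exon of Myh8, a protein-coding myosin heavy chain gene. The sequences of the genes were not compared with the fragments, so no fragment was assigned to a single gene.

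Fragments among the most abundant of each class and anticodon are shown next, the AGG fragment on few counts. Capitals mark the anticodon, or the part of it that is present, and the 3′-terminal CCA. The most abundant 5′ end fragments stop in the D arm or run on through the anticodon, the CCA-ended fragments are 15 to 22 nt long, and internal fragments have neither end.
5′ end, 16 nt, all anticodons: ggctcgttggtctagg
5′ end, 17 nt, all anticodons: ggctcgttggtctaggg
5′ end, 22 nt, all anticodons: ggctcgttggtctaggggtatg
5′ end, 34 nt, TGG form 1: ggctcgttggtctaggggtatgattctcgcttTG
5′ end, 45 nt, TGG form 1: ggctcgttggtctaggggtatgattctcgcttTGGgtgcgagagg
5′ end, 45 nt, CGG: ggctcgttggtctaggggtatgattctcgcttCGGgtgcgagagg
5′ end, 45 nt, AGG: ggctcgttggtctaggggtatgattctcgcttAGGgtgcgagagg
Internal, 12 to 35, CGG: ctaggggtatgattctcgcttCGG
Internal, 20 to 35, TGG form 1: atgattctcgcttTGG
Internal, 14 to 29, all anticodons: aggggtatgattctcg
CCA end, 17 nt, all anticodons: tcccggacgagcccCCA
CCA end, 18 nt, all anticodons: atcccggacgagcccCCA
3′ end without CCA, 15 nt, all anticodons: atcccggacgagccc
3′ end without CCA, 36 nt, all anticodons except TGG form 2: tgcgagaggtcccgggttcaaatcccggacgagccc
The 3 shortest 5′ fragments and both CCA-ended fragments are the same in all 4 forms, so their counts pool the 4 forms. The 10 most abundant tsRNAs held 37.1% of tRNA-Pro counts, while 235 of the 1453 were seen as a single count.

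The libraries held 330787 to 2563749 counts in all, of which 17411 to 37497 were tRNA-Pro. Both libraries numbered 1 were the smallest, and their tRNA-Pro share (6.13% in hypoxia and 5.60% in normoxia) was at least 3.83 times that of the other 4 (1.07 to 1.46%). Results that rest on them are therefore given as pairs of the same replicate number or also without them. Levels are given as counts scaled to a total of 1000000 per library (CPM of all counts). In such bulk RNA, fewer cells and less RNA per cell cannot be told apart.

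Summed tRNA-Pro fragments reached 61259, 14626 and 13384 CPM in hypoxia replicates 1, 2 and 3 and 55964, 12707 and 10683 CPM in normoxia. The difference between replicate 1 and the others was larger than that between the groups, and the groups overlapped. Within each replicate number the hypoxia library was the higher one, by 1.09, 1.15 and 1.25 times. The means of 29756 ± 27289 and 26451 ± 25578 CPM (SD, n = 3 per group) did not differ beyond this spread (two-sided exact permutation test, p = 0.5, adjusted p = 0.808 over 15 comparisons; the smallest p that 3 against 3 libraries can give is 0.1). Over the pairs alone, an exact sign-flip test gave its smallest possible p of 0.25. The mitochondrial tRNA-Pro had 1355, 315 and 270 CPM in hypoxia and 1264, 262 and 270 CPM in normoxia, with the same excess in replicate 1.

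**Figure D1:**
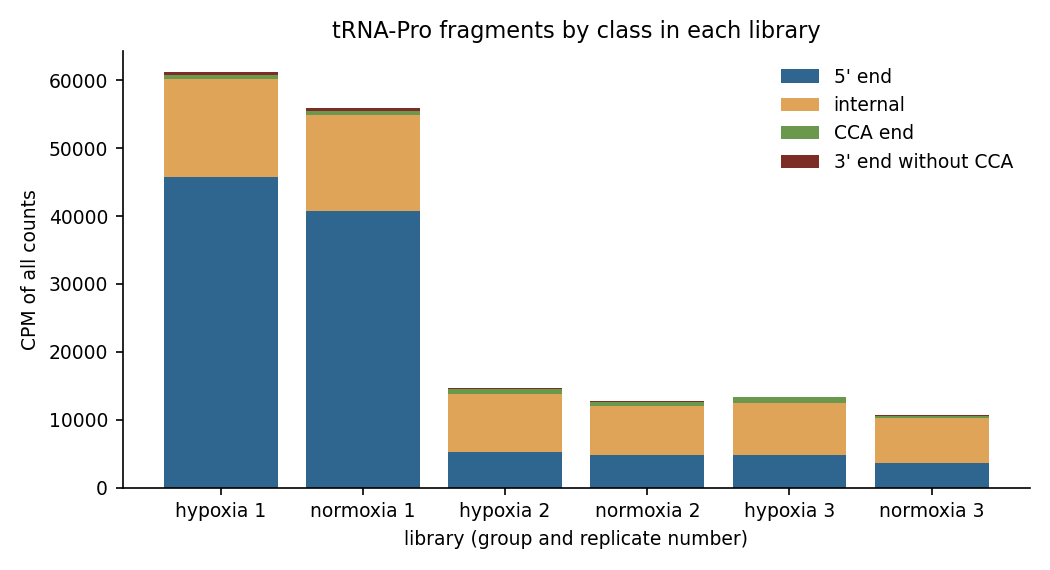
tRNA-Pro fragments in each library, in CPM of all counts (vertical axis), stacked by fragment class, with the libraries of the same replicate number side by side. The libraries numbered 1 reach 61259 and 55964 CPM, the other 4 stay between 10683 and 14626 CPM, and the hypoxia bar is the taller in each of the 3 pairs.

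The table's classes divided the 1453 tsRNAs into 67 5′ end fragments, 1349 internal ones, 8 CCA-ended ones and 29 that end at the last encoded base without CCA. The 5′ ends made up 74.8, 35.8 and 36.3% of tRNA-Pro counts in hypoxia and 72.8, 37.6 and 34.2% in normoxia. Internal fragments made up 23.5, 58.9 and 57.3% in hypoxia and 25.4, 57.7 and 62.2% in normoxia. The 5′ ends were thus the main class in replicate 1 and the internal fragments in replicates 2 and 3, whatever the oxygen. In CPM, 5′ ends were higher in hypoxia in 3 of 3 pairs, at 45795, 5233 and 4854 against 40715, 4779 and 3653 CPM. Neither share differed between the groups beyond the spread between libraries (exact permutation p = 0.7 and 0.6, adjusted p = 0.808 for both).

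Fragments of all other nuclear mature tRNAs (30259 tsRNAs) differed from tRNA-Pro in the other direction between replicates. Their 5′ share was 36.1, 55.0 and 55.5% in hypoxia and 33.3, 57.2 and 60.5% in normoxia, lowest in replicate 1, where that of tRNA-Pro was highest. As a result tRNA-Pro was richer in 5′ ends than the other tRNAs in both libraries numbered 1 and poorer in the other 4 (exact sign-flip test over 6 libraries, p = 0.938, where the smallest possible is 0.0312). The CCA-ended share of tRNA-Pro was the lower of the pair in 5 of 6 libraries, at 3.25 ± 2.002% against 4.65 ± 0.60% (SD, n = 6; exact p = 0.125, adjusted p = 0.5 over 4 shares). What sets the libraries numbered 1 apart was not tested.

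**Figure D2:**
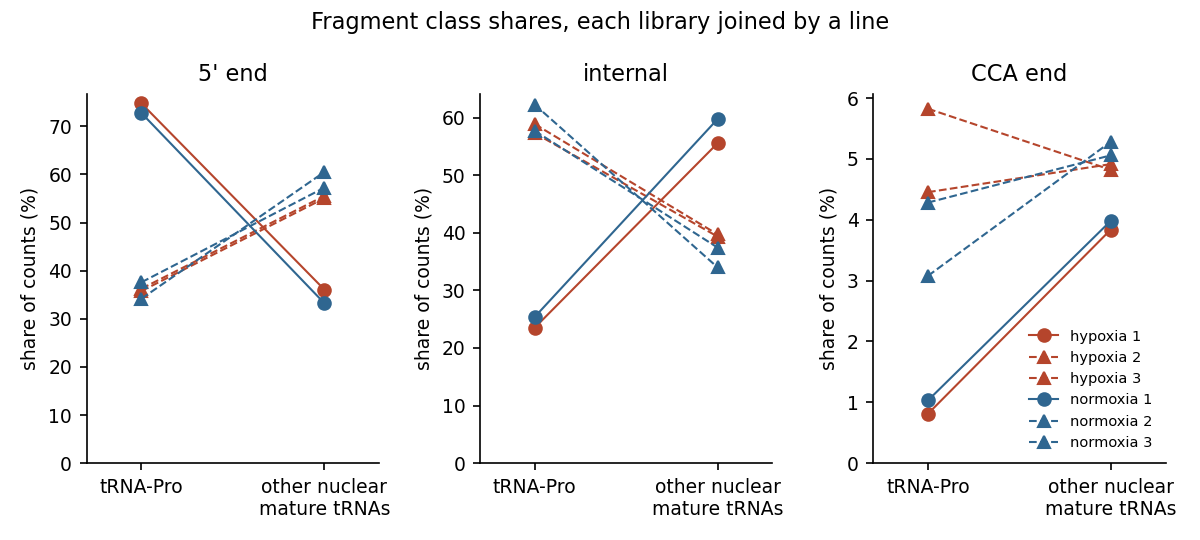
Share of counts (vertical axes, %) in 5′ end, internal and CCA-ended fragments for tRNA-Pro and for all other nuclear mature tRNAs, with the values of 1 library joined by a line (red, hypoxia; blue, normoxia; circles and solid lines, replicate 1; triangles and dashed lines, replicates 2 and 3). The lines of replicate 1 and of the other libraries cross for 5′ ends and for internal fragments: tRNA-Pro has 72.8 to 74.8% 5′ ends in replicate 1 and 34.2 to 37.6% elsewhere.

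The 5′ end fragments stopped at a few positions rather than evenly along the tRNA. The 16 nt fragment, which ends in the D loop, was the most abundant tRNA-Pro tsRNA and ranked 30 among all tsRNAs by mean CPM. It had 11590, 1362 and 1107 CPM in hypoxia and 10865, 1430 and 1335 CPM in normoxia. Hypoxia was the higher in pair 1 and the lower in pairs 2 and 3, and the log2 change was 0.06 (SE 0.98; adjusted p = 1 in edgeR's quasi-likelihood test). The 17 nt fragment had 2785, 598 and 687 CPM in hypoxia and 2576, 625 and 453 CPM in normoxia. The 22 nt fragment, which ends in the D arm, had 3965, 369 and 348 CPM in hypoxia and 4114, 266 and 175 CPM in normoxia. For both, hypoxia was higher in 2 of 3 pairs, so that none of the 3 shortest abundant forms moved one way in all pairs.

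Longer 5′ fragments ended in the anticodon stem, in the anticodon loop and at position 45. Fragments of 29 nt, the last before the base that tells the TGG forms apart, had 1659, 557 and 389 CPM in hypoxia and 1726, 486 and 282 CPM in normoxia. Fragments of 32 nt, which stop just before the anticodon, had 3896, 340 and 414 CPM in hypoxia and 2808, 259 and 192 CPM in normoxia, higher in hypoxia in 3 of 3 pairs. Fragments of 34 nt had 3346, 108 and 109 CPM in hypoxia and 2944, 96.9 and 63.2 CPM in normoxia. They had at least 2944 CPM in replicate 1 and at most 109 elsewhere. The 34 nt TGG form 1 fragment alone gave 2621, 49.5 and 44.3 CPM in hypoxia and 2264, 46.4 and 39.9 CPM in normoxia, higher in hypoxia in all 3 pairs but with overlapping groups (log2 change 0.27, SE 1.73).

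Fragments of 45 nt reached the variable loop between the anticodon arm and the T arm, and 45 nt is also the longest sequence in the table. Their sum was 3990, 626 and 544 CPM in hypoxia and 3253, 554 and 337 CPM in normoxia. The TGG form 1 fragment was the most abundant of them by mean CPM, at 2909, 352 and 254 CPM in hypoxia and 2313, 326 and 225 CPM in normoxia (log2 change 0.32, SE 0.998). The CGG fragment of the same length had 658, 173 and 184 CPM in hypoxia and 650, 163 and 66.9 CPM in normoxia (log2 change 0.30, SE 0.76). Both were higher in hypoxia in 3 of 3 pairs, with differences smaller than the spread within each group. Shorter internal fragments also stopped at position 45, with 1336, 823 and 689 CPM in hypoxia and 983, 643 and 678 CPM in normoxia, so that this end was not seen at the longest length alone.

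**Figure D3:**
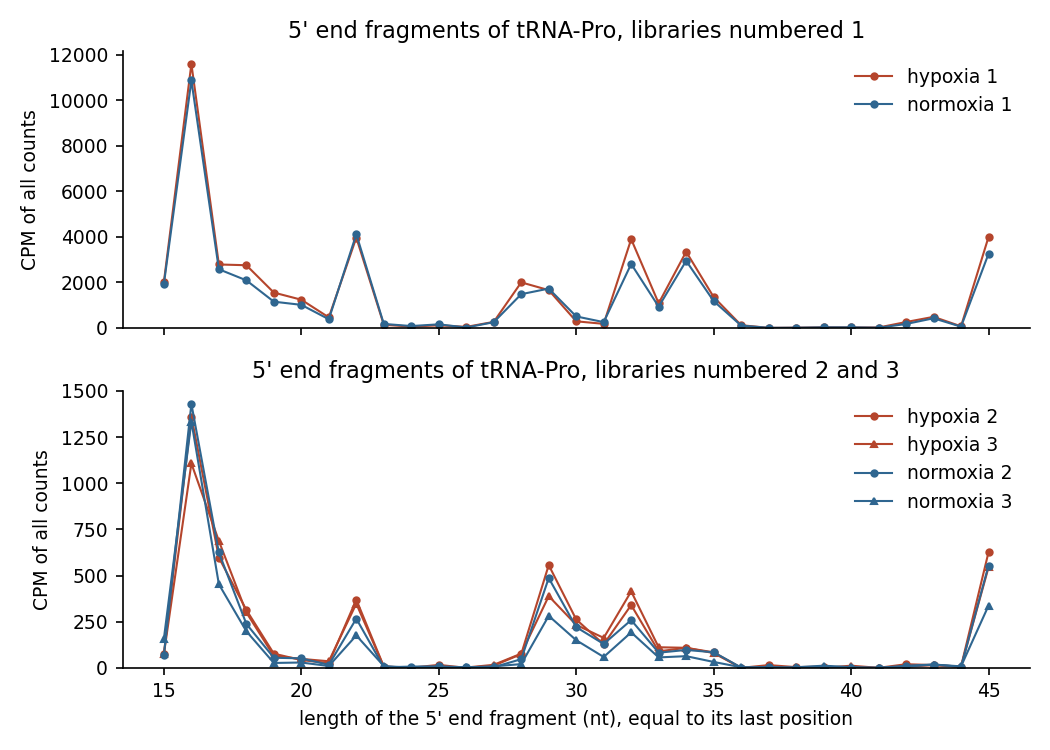
CPM of all counts (vertical axes) of 5′ end fragments by length in nt (horizontal axis), which equals the position of their last base, in the libraries numbered 1 (top) and in those numbered 2 and 3 (bottom, on a smaller scale). All 6 libraries peak at 16 nt and rise again at 22, 28 to 29, 32 and 45 nt, and the 34 nt peak of 2944 to 3346 CPM is seen in replicate 1.

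The share of 5′ end fragments of 30 nt or more, long enough to include at least the whole D arm and the 5′ side of the anticodon stem, was the only one of the 15 shares and levels compared whose groups did not overlap. It was 33.1, 32.6 and 34.9% in hypoxia and 31.2, 30.8 and 25.8% in normoxia. Every hypoxia library was above every normoxia library, and the libraries numbered 1 did not stand apart. The means were 33.5 ± 1.21% and 29.3 ± 2.98% (SD, n = 3 per group), a difference of 4.26 percentage points. The exact permutation p of 0.1 is the smallest this design can give, and the adjusted p over 15 comparisons was 0.808. The ratio of hypoxia to normoxia was 1.06 in pairs 1 and 2 and 1.35 in pair 3, and without normoxia replicate 3 the difference was 2.55 points. Within this range, fragments of 30 to 36 nt made up 22.4, 19.3 and 22.8% of 5′ ends in hypoxia and 21.4, 18.3 and 15.2% in normoxia, with overlapping groups. The shortest fragments, of 15 to 19 nt, made up 45.2, 46.3 and 46.02% in hypoxia and 45.7, 50.6 and 59.4% in normoxia. They were lower in hypoxia in 3 of 3 pairs, but the groups overlapped, and normoxia replicate 3 lay furthest from the rest.

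Coverage of the mature tRNA fell in steps at the same places. Internal fragments started at positions 2 to 24 in 77.4 to 85.7% of their counts, with peaks at positions 12, 19 and 20 among others. Starts at position 20 had 1281, 1148 and 924 CPM in hypoxia and 1376, 869 and 788 CPM in normoxia. Starts at position 12 had 1005, 938 and 653 CPM in hypoxia and 1103, 770 and 917 CPM in normoxia. Starts within the T arm, from position 48 on, were a replicate 1 feature at 14.2% in hypoxia and 13.3% in normoxia, against 2.87 to 4.19% in the other 4 libraries.

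Internal fragments ended within the anticodon loop (positions 31 to 37) in 40.1, 37.4 and 39.4% of their counts in hypoxia and 45.9, 39.5 and 42.0% in normoxia. Hypoxia was the lower in 3 of 3 pairs, and the groups overlapped. The single most used end was position 35, the last anticodon base, with 3056, 1261 and 1123 CPM in hypoxia and 3616, 1093 and 1022 CPM in normoxia. Ends at positions 38 to 60 took 31.7, 44.2 and 43.4% in hypoxia and 25.6, 38.7 and 35.9% in normoxia, higher in hypoxia in all 3 pairs by 1.24, 1.14 and 1.21 times. Of these, ends at position 52 had 866, 452 and 375 CPM in hypoxia and 411, 283 and 203 CPM in normoxia, and ends at position 55 in the T loop had 901, 812 and 744 CPM in hypoxia and 868, 556 and 424 CPM in normoxia. Both positions were higher in hypoxia in each pair, and in both the groups overlapped because normoxia replicate 1 lay above hypoxia replicate 3. These positions were described after their values were seen. Their unadjusted exact permutation p was 0.2 for position 52 and 0.3 for position 55.

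**Figure D4:**
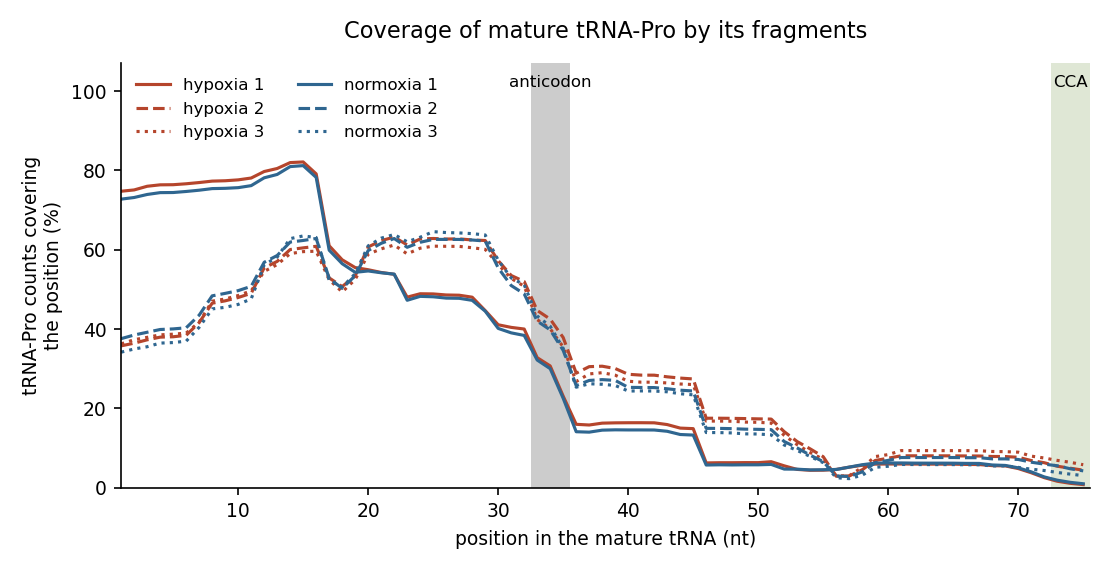
Percentage of tRNA-Pro counts whose fragment covers each position of the 75 nt mature tRNA (red, hypoxia; blue, normoxia; solid, dashed and dotted lines, replicates 1, 2 and 3; grey band, anticodon; green band, CCA). Coverage starts higher in replicate 1, drops after position 16 and through the anticodon loop, drops again after position 45, and is under 10% at the 3′ end in all 6 libraries.

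Fragments that reached the 3′ end were few. CCA-ended fragments had 498, 651 and 779 CPM in hypoxia and 577, 544 and 329 CPM in normoxia, higher in hypoxia in pairs 2 and 3 and lower in pair 1. In CPM the libraries numbered 1 lay within the range of the others, so that the share of CCA ends in tRNA-Pro counts was 0.812% and 1.03% there against 3.08 to 5.82% in the other 4. The 17 nt fragment had 119, 294 and 326 CPM in hypoxia and 157, 222 and 170 CPM in normoxia (log2 change 0.48, SE 0.67). The 18 nt fragment had 97.9, 159 and 202 CPM in hypoxia and 96.7, 118 and 76.7 CPM in normoxia, higher in 3 of 3 pairs with overlapping groups (log2 change 0.71, SE 0.62). Lengths of 20 nt or more took 38.6 and 32.46% of CCA-ended counts in replicate 1 and 2.99 to 6.81% in the other libraries. No CCA-ended tRNA-Pro fragment was longer than 22 nt in 5194 counts, which allows a share of up to 0.0578%, counting error only. Among the 351 CCA-ended tsRNAs of the other nuclear tRNAs, 113 were longer and held 3.83% of such counts.

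Among all fragments that reached the last encoded base, a full CCA was present in 31.6, 70.3 and 77.5% in hypoxia and 37.5, 71.7 and 70.5% in normoxia. No tail at all was found in 35.3, 13.98 and 7.95% in hypoxia and 29.8, 6.89 and 11.1% in normoxia. Incomplete tails ending in C made up 20.4, 7.92 and 6.38% in hypoxia and 19.8, 12.7 and 9.87% in normoxia, and those ending in CC 12.7, 7.75 and 8.13% against 12.9, 8.73 and 8.55%. The tail was thus missing or incomplete in most 3′ fragments of replicate 1 and in fewer than 30% in the other libraries, with no group difference beyond the spread (exact permutation p = 0.5 to 1, adjusted p = 0.808 to 1). Unlike the CCA-ended fragments, those without a tail reached 44 nt.

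The class without CCA held 0.908, 0.888 and 0.597% of tRNA-Pro counts in hypoxia and 0.821, 0.412 and 0.482% in normoxia. Hypoxia was higher in all 3 pairs, but the groups overlapped (exact permutation p = 0.2, adjusted p = 0.808). Its most abundant member, of 15 nt, had 116, 47.2 and 42.6 CPM in hypoxia and 151, 14.4 and 5.52 CPM in normoxia. Hypoxia was lower in pair 1 and higher in pairs 2 and 3, without a common direction. Its 36 nt member, which starts just behind the anticodon, had 62.7, 38.6 and 4.08 CPM in hypoxia and 42.3, 10.8 and 0.614 CPM in normoxia, higher in 3 of 3 pairs (log2 change 1.18, SE 1.24). The last normoxia value is 1 count.

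Among counts that could be given to 1 anticodon, TGG held 68.8, 64.7 and 65.8% in hypoxia and 69.4, 63.1 and 62.4% in normoxia, and CGG nearly all the rest, at 31.1, 35.2 and 34.1% against 30.5, 36.7 and 37.4%. The isoacceptors have the same length. TGG form 2 can also be told by positions 30 and 38, but CGG and AGG only by position 33, so these shares favour TGG. Neither share differed between groups beyond the spread (exact permutation p = 0.6, adjusted p = 0.808 for each). Restricting the counts to fragments that span position 33 left the direction as it was. It lowered the TGG share to 68.1, 60.3 and 60.8% in hypoxia and 68.3, 58.0 and 56.5% in normoxia. AGG held 0.067, 0.149 and 0.135% in hypoxia and 0.130, 0.156 and 0.218% in normoxia, lower in hypoxia in 3 of 3 pairs on 98 counts in all (exact permutation p = 0.3). This is little beside its 6 genes of 16. The 30 AGG tsRNAs all carried the encoded base (T33A against TGG form 1), and 0 sequences of the table carried G in its place, which inosine would give. What the authors' matching did with such reads was not tested, so AGG counts cannot be read as the level of tRNA-Pro-AGG.

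AGG fragments were counted too rarely to compare their classes. The 4 tsRNAs of AGG 5′ ends had 6, 13 and 12 counts in hypoxia against 0, 5 and 2 in normoxia, too few to be tested, and the 45 nt fragment shown above gave 15 of the hypoxia counts. The 26 internal AGG tsRNAs had 1, 15 and 3 counts in hypoxia against 8, 16 and 17 in normoxia. In CPM neither class overlapped between the groups, 5′ ends being higher and internal fragments lower in hypoxia. Among the tested sums of the whole table such non-overlap was seen in 2.54% (higher) and 3.62% (lower), and the internal AGG sum had an edgeR adjusted p of 0.999. That sum had enough counts to be tested in its normoxia libraries only.

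Among the counts given to 1 TGG form, the forms held other shares in replicate 1 than elsewhere. Form 1 held 82.2, 60.3 and 56.4% of the counts that tell the forms apart in hypoxia and 78.9, 58.1 and 55.1% in normoxia. Among 5′ ends, form 1 held 84.9, 44.4 and 34.3% in hypoxia and 83.1, 44.7 and 46.2% in normoxia. The forms are not counted on equal terms. A fragment with position 30 or 38 but not position 33 can be given to form 2. Its form 1 counterpart is the same in AGG and CGG and is left out. Which form was the more abundant among 5′ ends was therefore not settled. Among internal fragments form 1 was the larger in all 6 libraries, at 57.1 to 78.1%. Form 1 had 11635, 2863 and 2408 CPM in hypoxia and 10200, 2228 and 1838 CPM in normoxia, higher in 3 of 3 pairs. Form 2 had 2519, 1886 and 1862 CPM in hypoxia and 2733, 1606 and 1495 CPM in normoxia, higher in pairs 2 and 3, and it was the form with the smaller step between replicate 1 and the others.

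For the test across tsRNAs, a filter on low counts kept 360 of the 1453 tRNA-Pro tsRNAs, with 91.7% of their counts, among 6452 in the whole table. It kept all 8 CCA-ended tsRNAs, 36 of 67 5′ ends, 311 of 1349 internal ones, 5 of 29 without CCA and 0 of 30 AGG tsRNAs. With edgeR's quasi-likelihood test, group alone and Benjamini-Hochberg adjustment over all 6452, no tRNA-Pro tsRNA passed an adjusted p of 0.05, and the background was 0% (0 of 6452). At an unadjusted p under 0.05, 1 tRNA-Pro tsRNA was higher (background 0.279%) and 1 lower (background 0.418%). DESeq2 gave 0 after adjustment (background 0%) and, before it, 3 higher and 2 lower (backgrounds 0.527% and 0.775%). limma voom also gave 0 (background 0%) and, before adjustment, 3 higher and 1 lower (backgrounds 0.868% and 0.821%). With the replicate number as a block, 0 of 360 passed against a background of 0.155%, the smallest adjusted p being 0.422, and 19 were higher and 5 lower before adjustment (backgrounds 3.41% and 2.98%). Without both libraries numbered 1, 0 of 383 tested tRNA-Pro tsRNAs passed (background 0.0154%), and 20 were higher and 8 lower before adjustment (backgrounds 4.52% and 4.89%).

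The tested tRNA-Pro tsRNAs had a median log2 change of 0.26, beside 0.02 over all tested tsRNAs, and 235 of 360 (65.3%) were above 0, beside 51.3% of all. This median depended on single libraries: it was 0.13 without hypoxia replicate 1, 0.15 without normoxia replicate 3 and 0.45 without normoxia replicate 1. In 74 of 360 (20.6%) the hypoxia library was the higher in all 3 pairs, where the background was 15%, and in 23 (6.39%) the lower, where it was 13.4%. The groups did not overlap in 16 with hypoxia higher (4.44%, background 2.32%) and in 3 with hypoxia lower (0.833%, background 2.51%). The medians by class were 0.27 for 5′ ends, 0.24 for internal fragments, 0.51 for CCA ends and 0.39 for 3′ ends without CCA. By anticodon they were 0.28 for TGG, 0.24 for CGG and 0.24 for the shared tsRNAs. The members overlap in sequence and come from the same libraries, so these counts are not independent, and the tsRNAs that failed the filter are not described by them.

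The tsRNA with the smallest p was an internal fragment of positions 40 to 55, from the 3′ side of the anticodon stem to the T loop, shared by all 4 forms. It and the other fragments nearest to the threshold are shown here in the same way.
Internal, 40 to 55, all anticodons: gagaggtcccgggttc
Internal, 38 to 55, all anticodons except TGG form 2: gcgagaggtcccgggttc
Internal, 60 to 74, all anticodons: cccggacgagcccCC
Internal, 17 to 31, TGG form 2: ggtatgattctcggt
Internal, 20 to 51, CGG: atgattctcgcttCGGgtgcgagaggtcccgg
Internal, 25 to 45, TGG form 2: tctcggttTGGgtccgagagg
The 40 to 55 fragment had 33.3, 48.4 and 19.3 CPM in hypoxia and 12.1, 8.57 and 5.52 CPM in normoxia. Every hypoxia library lay above every normoxia library (log2 change 2.01, SE 0.70; edgeR adjusted p = 1). The fragment that starts 2 bases earlier and ends at the same base had 41.1, 30.8 and 51.9 CPM in hypoxia and 33.3, 8.57 and 6.14 CPM in normoxia, higher in all 3 pairs with overlapping groups (log2 change 1.66, SE 0.74). The fragment of positions 60 to 74, which carries CC of the tail, had 11.8, 25.7 and 13.4 CPM in hypoxia and 6.05, 3.61 and 7.98 CPM in normoxia, without overlap (log2 change 1.54, SE 0.81, and 0.97 without hypoxia replicate 2).

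Of the fragments on the lower side, that of positions 17 to 31 of TGG form 2 had 1.96, 3.51 and 4.67 CPM in hypoxia and 18.1, 9.47 and 23.9 CPM in normoxia. The groups did not overlap, on 1 to 9 counts per hypoxia library (log2 change -2.20, SE 0.84; edgeR adjusted p = 1). This fragment passed the filter on low counts through its normoxia libraries only, so the lack of overlap is in part a product of the filter. The CGG fragment of positions 20 to 51 had 11.8, 10.9 and 3.50 CPM in hypoxia and 18.1, 24.8 and 33.7 CPM in normoxia, also without overlap (log2 change -1.70, SE 0.77). The TGG form 2 fragment of positions 25 to 45 had 1.96, 3.51 and 12.3 CPM in hypoxia and 9.07, 13.98 and 54.0 CPM in normoxia, lower in all 3 pairs (log2 change -2.11, SE 1.11). Its change was -3.39 without hypoxia replicate 3 and -0.72 without normoxia replicate 3. Both lower TGG fragments came from form 2, which differs from form 1 by C30G and G38C. That of positions 17 to 31 lacks position 33, so its form 1 counterpart could not have been given to TGG. Summed form 2 was lower in hypoxia in pair 1 and higher in pairs 2 and 3. The fragments nearest to the threshold were taken by their p, so their fold changes are among the most extreme of the 360, which ranged from -2.20 to 2.10.

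The most abundant internal fragments had smaller log2 changes. The CGG fragment of positions 12 to 35, which ends with the anticodon, had 396, 213 and 171 CPM in hypoxia and 487, 187 and 202 CPM in normoxia (log2 change -0.14, SE 0.50). The TGG form 1 fragment of positions 20 to 35 had 290, 125 and 89.9 CPM in hypoxia and 405, 89.7 and 91.4 CPM in normoxia (log2 change -0.12, SE 0.63). The fragment of positions 14 to 29 had 272, 90.5 and 56.0 CPM in hypoxia and 390, 130 and 156 CPM in normoxia, and was the one of the 3 that was lower in each pair (log2 change -0.73, SE 0.62). With the replicate block its edgeR adjusted p was 0.699.

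Counts were also summed by anticodon set and class and tested among 276 such groups of the whole table, of which 10 of the 12 tRNA-Pro groups passed the filter. None passed the adjusted threshold in edgeR, group alone (background 0%), and 0 of the 10 had an unadjusted p under 0.05 (backgrounds 0.725% higher and 0.362% lower). DESeq2 and limma voom also gave 0 after adjustment (background 0% in both), though DESeq2 gave no adjusted p to 23 of the 276 groups. Before adjustment, DESeq2 had 0 of the 10 on either side, and limma voom 0 higher and 1 lower (2 and 3 over all 276). Without both libraries numbered 1, 0 of the 10 tested passed, against a background of 4.83%. Before adjustment, 3 of these 10 were higher and 0 lower (28 and 35 over all 269 groups tested). With the replicate block, 2 of 10 were higher and 0 lower before adjustment (16 and 14 over all 276). With group alone, all but AGG internal had a positive log2 change, beside 54.0% of all 276 groups. This depended on single libraries: 5 of 10 were positive without hypoxia replicate 1 and 10 of 11 without normoxia replicate 1. The sums come from the same 6 libraries and are not independent. In all 3 pairs, 5 of 10 were higher in hypoxia, where the background was 19.9%. The CGG and TGG 5′ ends, the shared 5′ ends, the shared 3′ ends without CCA and the CGG internal fragments were those 5. With the block, the shared 3′ ends without CCA had a log2 change of 0.85 (SE 0.33; edgeR adjusted p = 0.425). On the same terms the TGG 5′ ends, at 8503, 1071 and 1074 CPM in hypoxia and 7068, 943 and 620 CPM in normoxia, had 0.45 (SE 0.17; adjusted p = 0.425). The internal AGG group had the most negative change, -1.65 (SE 0.76; group alone, adjusted p = 0.999), and was the only one of the 10 whose groups did not overlap, where the background was 3.62% for lower and 2.54% for higher sums. It passed the filter on low counts through its normoxia libraries only. The AGG 5′ sum, without overlap in the other direction, failed that filter, so the filter decided which of the AGG sums stood out here.

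**Figure D5:**
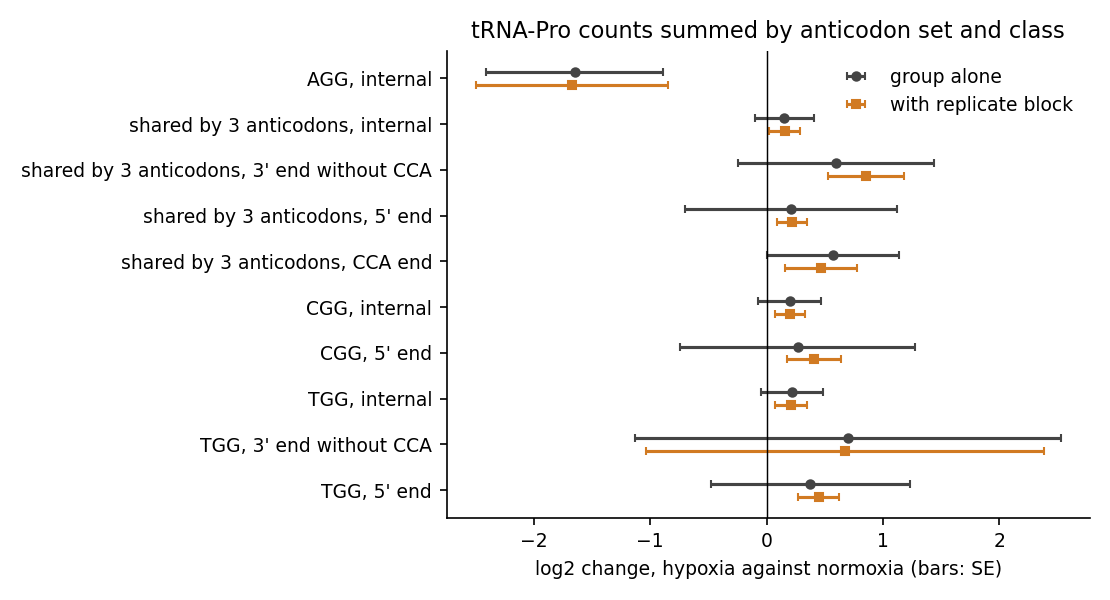
log2 change in hypoxia against normoxia (horizontal axis, bars are 1 SE) of the 10 tested sums of tRNA-Pro counts by anticodon set and class, with the group alone (grey circles) and with the replicate number as a block (orange squares). Of the 10 values, 9 lie above 0 in both fits, bars are shorter with the block for most groups, and none passed the adjusted threshold.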

How the data were processed

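The deposited values are raw counts per distinct sequence, not normalized, in 6 libraries (per the file headers, 1 count column per library). Per the labels' protocols, total RNA went through the enzyme treatment of Pandora-seq. The build is mm10 per the submitters' processing notes. The aligner, annotation tool, tRNA reference and any filter on reads were not given in the sources used here. Reads carried no stated molecular identifiers, so that depth (330787 to 2563749 counts) gives counting error as a lower bound only.

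tRNA-Pro sequences were found by their annotation, joined by overlaps of at least 20 nt (15 nt at the CCA end) into full-length forms, and placed on them by exact matching. No member was given an ambiguous position. Gene locations are from RefSeq and GENCODE. Groups and replicate numbers came from sample titles. CPM uses each library's plain total and a scale of 1000000. Tests across tsRNAs and groups used edgeR 4.0.16 (TMM, filterByExpr, quasi-likelihood, adjusted p under 0.05) in R 4.3.3, fitted on the whole table. The edgeR fit was also run on simulated counts. These held no shift shared by libraries of the same number, so that feature of the data was not covered. DESeq2 1.42.0 and limma 3.58.1 (voom) were alternatives, with other scalings, filters, the replicate block and each library left out. Shares were compared with exact permutation tests in SciPy 1.17.1, two-sided.

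Named tsRNAs were the 3 most abundant of each class, the 2 most abundant of each anticodon, and the 3 higher and 3 lower with the smallest p among those of at least 10 CPM. The members and lists were chosen with earlier results of these data known. The deviations from the group mean of libraries with the same number correlated at 0.81, 0.53 and 0.45 over all tested tsRNAs (0.83, 0.54 and 0.45 over tRNA-Pro). Deviations cancel out within a group, and libraries of different numbers were not correlated, so these values cannot show pairing. The labels do not say that a number marks a shared animal or day, and pairing by number was assumed.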

Additional observations from a re-analysis of the deposited data

How the results depend on the processing

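Over 50 results, 593 of 662 values under other settings were labelled as unchanged, 65 changed sign and 4 counts of calls rose from 0. Unchanged means the same direction and side of the 0.05 threshold or, for counts of calls, the same count. The shares and levels could not cross it, since their smallest exact permutation p is 0.1. A missing DESeq2 adjusted p was taken as not called. The 593 are therefore in part fixed in advance. The replicate block treats libraries of the same number as pairs. With it, calls over the whole table went from 0 to 10 tsRNAs (12 with DESeq2 size factors added) and no tRNA-Pro call changed. Without both libraries numbered 1, a choice made after seeing the data like the block with DESeq2 size factors and the restriction to fragments spanning the anticodon, 1 tsRNA and 13 groups were called, none of tRNA-Pro.

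The 16 nt 5′ fragment ggctcgttggtctagg gave a log2 change of -0.089 with limma voom, -0.088 with the block, -0.12 with the block and DESeq2 size factors and -0.20 without the libraries numbered 1. The internal fragment atgattctcgcttTGG gave 0.028 with no filter, 0.016 with voom and 0.20 without those libraries, the TGG 3′ ends without CCA gave -0.89 and the full CCA share 2.84 points without them. The cause was not tested.

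Leaving out 1 library at a time changed signs for libraries of every replicate number. Summed tRNA-Pro differed by -12447 CPM (without hypoxia replicate 1) to 18061 CPM (without normoxia replicate 1). In percentage points, the ranges were -12.2 to 13.04 for 5′ ends, -13.4 to 9.65 for internal fragments and -0.165 to 2.34 for CCA ends (lowest without hypoxia replicate 3). For 3′ states they were -4.95 to 10.1 for no tail, -6.98 to 0.279 for C, -2.14 to 0.88 for CC and -11.3 to 14.1 for a full CCA, and for CCA lengths -4.95 to 3.52 (17 to 19 nt) and -7.23 to 13.2 (20 to 23 nt).

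Ranges of log2 changes were -1.35 to 1.23 (5′, 16 nt), -0.47 to 0.90 (17 nt), -1.46 to 2.27 (22 nt), -3.37 to 3.75 (34 nt TGG), -1.12 to 1.55 (45 nt TGG) and -0.23 to 1.14 (45 nt CGG). Internal fragments gave -0.27 to 0.090 (12 to 35) and -0.42 to 0.52 (20 to 35), the CCA end of 15 nt -0.11 to 1.29 and the 17 nt 3′ end without CCA -1.08 to 2.71. Sums gave -0.90 to 1.33 (shared 5′ ends), -0.88 to 1.63 (CGG), -0.57 to 1.43 (TGG) and -0.98 to 1.99 (TGG 3′ ends without CCA). Depth limits AGG most, with 98 counts in all.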
